A study of Mus musculus with 17 samples.

Results

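The comparison described here set the C2C12 line labelled SRF-RELA against the line labelled SRF. It rests on 6 of the 17 libraries of the series, 3 from each line, taken by their group labels, and on every gene in the deposited count table. C2C12 is an immortalised mouse myoblast line that can be induced to form skeletal muscle fibres, and here it was grown in medium with 10% fetal bovine serum. SRF carries the serum response factor alone. SRF-RELA carries a fusion named for SRF and RELA, 1 of several SRF fusions that the series takes from myoid soft tissue tumours. The question is which transcripts a line with the fusion holds at other levels than a line with SRF itself. The empty-vector line pMSCV and a line with another fusion, SRF-ICA1L, contributed 3 libraries each to the estimate of the spread. The labels do not give the species of the introduced sequences, the parts of each protein kept in the fusion, or whether a line was 1 clone or a pool. They also do not say whether libraries with different numbers came from separate cultures, so p-values measure the spread between these libraries, which may be technical.

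SRF binds DNA at a sequence known as the CArG box. With ternary complex factors it drives immediate-early genes such as Fos and Egr1 after serum or growth factor stimulation, and with myocardin-related cofactors it drives actin cytoskeleton and contractile genes. RELA, also called p65, is a subunit of NF-kappaB. It carries a strong transactivation domain, is held in the cytoplasm by inhibitor proteins such as the product of Nfkbia, and on release binds kappaB sites near genes for cytokines, chemokines and its own inhibitors. Myoblasts express Myod1 and Myf5, the factors that commit cells to the muscle lineage, and M-cadherin, encoded by Cdh15.

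The introduced genes were examined first. Levels are in CPM, counts scaled to a common library size. Srf (ENSMUSG00000015605, GRCm38 chr17:46548329-46556175, minus strand) was at 155, 137 and 85.0 CPM in SRF-RELA replicates 1 to 3, and at 1673, 678 and 1033 CPM in SRF. The SRF libraries all lay above the SRF-RELA libraries, and pMSCV held 66.6, 93.8 and 83.4 CPM. The log2 fold change of SRF-RELA over SRF was -3.15 (standard error, SE, 0.33, adjusted p 0.00755), an 8.85-fold lower level. Adjusted p-values here are from the quasi-likelihood test of edgeR, corrected over all genes tested by the Benjamini-Hochberg method. The gene labelled Srf in the table sums whatever reads of the introduced SRF were counted with those of the mouse gene, and that share is not known. Rela (ENSMUSG00000024927, chr19:5637483-5648130, plus strand) was at 80.9, 98.5 and 72.2 CPM in SRF-RELA and at 81.5, 87.0 and 78.7 CPM in SRF. Its log2 fold change was 0.02 (SE 0.10, adjusted p 0.926), so the Rela row does not check the label of the fusion line.

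The start of the mouse Srf gene is shown because Srf is both the introduced gene and a known target of its own product. The window, from 250 bases before to 50 bases after the annotated start (RefSeq, GRCm38.p6, chr17:46556113-46556412, minus strand), holds 2 CArG boxes in capitals, at -82 to -73 and at -62 to -53 from the start.
Srf: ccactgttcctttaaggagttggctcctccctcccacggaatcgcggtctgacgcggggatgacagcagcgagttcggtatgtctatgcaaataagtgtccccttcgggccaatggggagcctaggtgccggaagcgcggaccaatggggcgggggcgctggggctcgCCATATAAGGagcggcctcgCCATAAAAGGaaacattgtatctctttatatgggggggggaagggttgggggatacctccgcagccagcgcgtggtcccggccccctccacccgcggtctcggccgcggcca

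Every SRF library was deeper than every SRF-RELA library. Library totals were 20948439 to 21672748 counts in SRF-RELA and 22173139 to 23543734 in SRF, and the 17 libraries spanned 20901442 to 23543734. The myoblast markers Myod1, Myf5, Cdh15, Des, Chrna1 and Chrnb1 were all present, with summed levels of 303 to 650 CPM in SRF-RELA, 663 to 1292 CPM in SRF and 1283 to 1780 CPM in pMSCV. In libraries of a whole culture, fewer cells of a type and less RNA per cell cannot be told apart. The macrophage markers Ptprc, Adgre1 and Itgam and the endothelial markers Pecam1, Kdr and Emcn were not in the table. Over the 6 libraries, the median gene owed 59.2% of its variance to replicate number and 14.3% to the line. Terms unrelated to the data would hold 40% and 20% on average. Those are averages and not medians, so 14.3% is not read as less than an unrelated term would hold. The comparison was defined with replicate number as a block, and each same-numbered pair of libraries was also compared by itself.

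With the block, 96 of 14639 genes tested were called at an adjusted p under 0.05, or 0.656%. Of these, 73 were higher in SRF-RELA (0.499% of the genes tested) and 23 were lower (0.157%). All 96 moved in their direction in 3 of 3 pairs, against 19.3% of the genes tested that were higher in 3 of 3 pairs and 22.3% that were lower. A test with the block favours genes whose pairs agree, so this contrast is no separate support. The 3 SRF-RELA libraries lay above the 3 SRF libraries for 40 of the 73 higher genes and below them for 15 of the 23 lower genes. Atp2b3 is included in both counts of higher genes, although replicate 3 of SRF-RELA and of SRF held 1 count each. That pair is a tie apart from the scaling. Over all genes tested, 5.69% had their groups apart in the upward direction and 5.12% in the downward direction. At least a 2-fold difference was seen for 51 of the higher and 20 of the lower genes. An unadjusted p under 0.05 was reached by 2486 genes, or 17% of those tested.

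These counts depended on the fit and on every library. SRF and SRF-RELA fitted alone with the block, which leaves 2 residual degrees of freedom, gave 0 called genes and 2058 at an unadjusted p under 0.05 in edgeR. Without the block, the 12 libraries also gave 0 (580 genes with p under 0.05 before adjustment). DESeq2 with the block called 651 of the same 14639 genes, 421 higher and 230 lower. Counts by DESeq2 for the gene lists below are to be read against that larger share. Leaving out SRF-RELA replicate 1, 2 or 3 gave 5, 23 and 37 called genes. Leaving out SRF replicate 1, 2 or 3 gave 34, 17 and 19. For the 30 genes other than Rela that are named by rule, 650 of 650 gene and setting combinations kept the sign reported here. Of the 650, 290 passed the threshold. These genes were called in the same libraries and moved 1 way in 3 of 3 pairs, so a reversal was hardly possible. The kept sign is therefore no separate support for their direction.

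**Figure D1:**
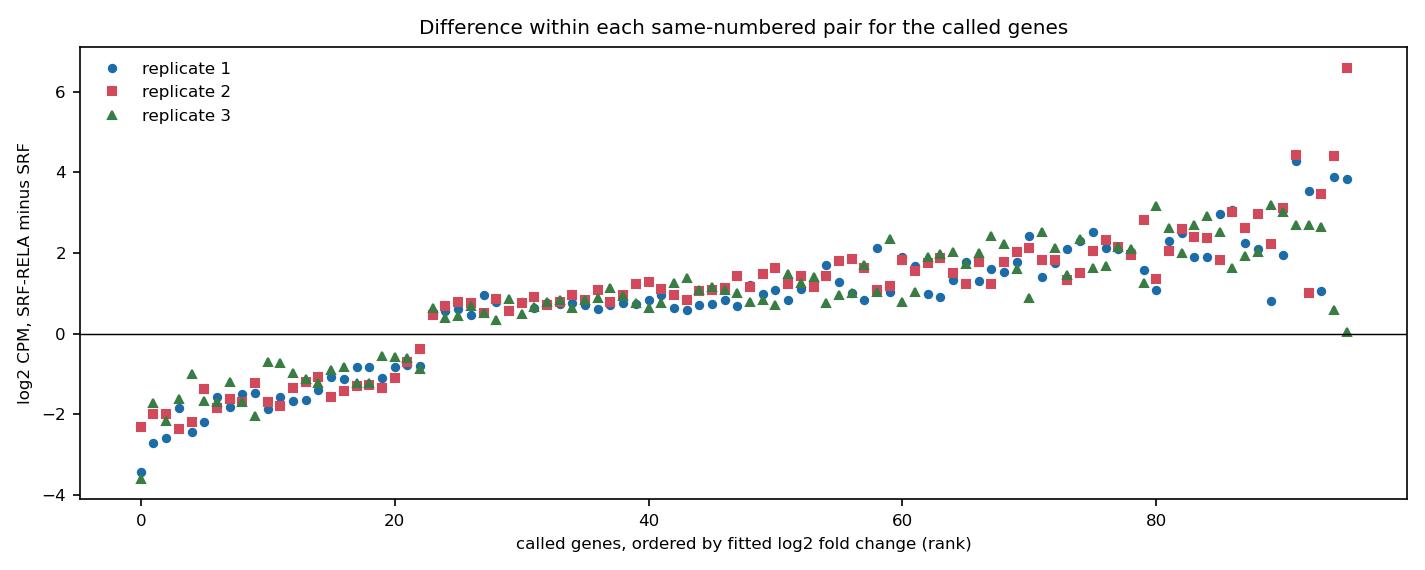
Difference in log2 CPM between SRF-RELA and SRF within each same-numbered pair (vertical axis) for the 96 called genes, ordered by their fitted log2 fold change (horizontal axis, rank). Points are replicate 1, 2 and 3. All 3 points of a gene lie on 1 side of the line at 0, for 23 genes below it and for 73 genes above it. The replicate 3 point of Atp2b3, from 1 count in each library, lies at 0.03.

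Of 20 immediate-early targets, Egr4 was called higher and 0 were called lower. Egr4 encodes a zinc finger transcription factor of the early growth response family. Egr4 (ENSMUSG00000071341, chr6:85511121-85513589, minus strand) was at 3.92, 7.71 and 0.0466 CPM in SRF-RELA, and at 0.182, 0.274 and 0 CPM in SRF. Replicates 1 and 2 of SRF-RELA were far above every SRF library, while replicate 3 lay within the range of the SRF libraries, so the groups overlapped. The log2 fold change was 4.55 (SE 0.45, adjusted p 0.00625). In total, 15 of the 20 had a log2 fold change above 0, with a median of 0.72, where 7102 of 14639 genes lay above 0 and the median of all genes was -0.01. At an unadjusted p under 0.05 there were 10 of the 20. DESeq2 called 6 higher and 0 lower, where over all 14639 genes it called 421 higher and 230 lower.

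Some other members of this group, chosen after their values were seen, were also low in replicate 3. Junb, an AP-1 subunit, was at 962, 2443 and 233 CPM in SRF-RELA against 548, 922 and 131 CPM in SRF (adjusted p 0.0599). Egr1 was at 1894, 3150 and 176 CPM against 981, 1576 and 127 CPM (adjusted p 0.117). Fos was at 600, 569 and 1.73 CPM against 388, 221 and 1.002 CPM (adjusted p 0.417). For Junb, Egr1 and Fos, SRF-RELA was above SRF in each pair, and the replicate 3 libraries of both lines stood far below the others. The list was mixed. Klf4, Fosl1, Dusp1, Klf6 and Maff had log2 fold changes below 0. Fosb, Nr4a1 and Nr4a2 were lower in SRF-RELA than in SRF in replicate 3. Fosl1 was not low in replicate 3, at 178, 210 and 186 CPM in SRF-RELA and 172, 271 and 225 CPM in SRF. The summed level of the 20 genes was 6638, 12107 and 1302 CPM in SRF-RELA and 4586, 5839 and 1250 CPM in SRF. Leaving out every replicate 2 library of the 12 gave a list median of 0.23.

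Of the NF-kappaB targets, Il6 was called, and the list as a whole lay close to all genes. Il6, a secreted cytokine, was at 2.25, 13.1 and 0.280 CPM in SRF-RELA and at 0.454, 1.60 and 0 CPM in SRF. Each SRF-RELA library was above the SRF library of its number, but the groups overlapped. The log2 fold change was 2.86 (SE 0.49, adjusted p 0.0363). Il6 was also present in pMSCV, at 0.876, 5.07 and 0.140 CPM, and SRF-RELA over pMSCV gave 1.34 (adjusted p 0.107). Among the 23 NF-kappaB targets tested, 12 had a log2 fold change above 0 and the median was 0.06. Cxcl1, a neutrophil chemokine, was at 222, 603 and 33.3 CPM against 133, 202 and 10.9 CPM, with an adjusted p of 0.0644. The targets Tnf, Cxcl2, Ccl20, Csf2, Icam1, Birc3, Cd83, Nos2, Saa3, Lcn2 and Cfb were not in the table.

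The subunits and regulators of NF-kappaB gave no called gene among 20 in edgeR, with 2 at an unadjusted p under 0.05 and 0 called in DESeq2. Their median was 0.11. Nfkbia, the inhibitor that NF-kappaB itself induces, was at 101, 318 and 31.4 CPM in SRF-RELA and 55.7, 154 and 32.2 CPM in SRF (log2 fold change 0.66, SE 0.23, adjusted p 0.2003). Replicates 1 and 2 were higher in SRF-RELA and the replicate 3 libraries were level. Cyld, a deubiquitinase that restrains the pathway, was at 120, 134 and 144 CPM against 118, 102 and 109 CPM (adjusted p 0.267).

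The windows around the starts of Il6 and Egr4 are shown because they are the called members of the target lists that hold a kappaB site. Both are from RefSeq on GRCm38.p6, from 250 bases before to 50 bases after the start, with the kappaB site in capitals. The site lies at -44 to -35 in Il6 (chr5:30012864-30013163, plus strand) and at -152 to -143 in Egr4 (chr6:85513540-85513839, minus strand).
Il6: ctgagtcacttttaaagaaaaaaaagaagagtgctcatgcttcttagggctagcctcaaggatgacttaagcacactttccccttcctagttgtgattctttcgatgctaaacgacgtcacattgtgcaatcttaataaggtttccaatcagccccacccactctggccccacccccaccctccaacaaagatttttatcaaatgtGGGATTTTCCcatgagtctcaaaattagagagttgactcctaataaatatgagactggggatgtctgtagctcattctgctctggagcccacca
Egr4: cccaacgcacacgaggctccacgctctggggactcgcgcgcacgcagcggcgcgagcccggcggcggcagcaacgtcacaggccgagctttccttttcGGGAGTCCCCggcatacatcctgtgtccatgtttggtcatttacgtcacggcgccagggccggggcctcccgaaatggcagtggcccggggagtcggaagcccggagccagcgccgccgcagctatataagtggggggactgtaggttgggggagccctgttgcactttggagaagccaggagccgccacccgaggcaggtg

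Both motifs were searched by name on both strands, and a match is a description of the letters, not a bound site. RefSeq windows were found for 10421 of the genes tested, of which 6.2% held a kappaB site and 1.68% a CArG box. Among the called higher genes, 58 of 73 had a window, 4 of them with a kappaB site (6.9%) and 1 with a CArG box (1.72%), shares close to those of all genes. The kappaB matches were in Il6, Egr4, Prkd1 and Ahrr, and the CArG match in Klf8. Among the called lower genes, 16 of 23 had a window, 0 with a kappaB site and 2 with a CArG box (12.5%), Srf and Itgb6. The Srf row can hold reads of the introduced SRF, so its call cannot be read as a change at this promoter. The 12.5% rests on these 2 genes, too few to read against the 1.68% of all genes, and an excess of CArG boxes was not tested.

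Among 35 collagens and matrix glycoproteins, 3 genes were called higher and 0 lower, and DESeq2 called 7 higher and 1 lower. Col2a1 encodes the main collagen of cartilage. Col2a1 (ENSMUSG00000022483, chr15:97975602-98004695, minus strand) was at 15.8, 74.7 and 9.28 CPM in SRF-RELA, 0.727, 3.38 and 1.35 CPM in SRF, and 0.138, 0.705 and 0.981 CPM in pMSCV. All SRF-RELA libraries lay above all SRF libraries. The log2 fold change was 4.002 (SE 0.50, adjusted p 0.0114), a 16.0-fold higher level. Tnxb, which encodes tenascin-X, was at 3.13, 8.76 and 6.71 CPM against 0.772, 1.60 and 0.959 CPM. Its groups were apart as well (log2 fold change 2.48, SE 0.44, adjusted p 0.0393). Col12a1, a collagen that sits on the surface of other fibrils, was the abundant one, at 310, 482 and 654 CPM against 206, 268 and 252 CPM, with no overlap (log2 fold change 0.95, SE 0.17, adjusted p 0.0394).

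Across the list, 29 of 35 matrix genes had a log2 fold change above 0, the median was 0.67, and 15 reached an unadjusted p under 0.05. Summed levels were 14953, 25606 and 22204 CPM in SRF-RELA and 11384, 12445 and 17265 CPM in SRF, so each pair showed the difference, although the pMSCV libraries spanned 8046 to 25706 CPM. Members that missed the threshold included Col16a1, at 46.0, 91.5 and 35.9 CPM against 17.2, 26.6 and 20.1 CPM (adjusted p 0.0583). Fbln5, an elastic fibre protein, was at 96.5, 141 and 72.5 CPM against 49.6, 44.6 and 37.4 CPM (adjusted p 0.0609). Bgn, the proteoglycan biglycan, was at 1841, 2430 and 2041 CPM against 1012, 705 and 570 CPM (adjusted p 0.102). In each of these 3 genes the groups did not overlap. Hmcn1, which encodes hemicentin, stood at the other end of the list with 0.245, 1.28 and 0.140 CPM against 8.50, 2.06 and 4.88 CPM (log2 fold change -3.05, SE 0.71, adjusted p 0.0856). The list median stayed between 0.44 and 0.82 over 22 other settings.

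Matrix proteases and their inhibitors gave 0 called genes of 22 in edgeR, with 6 at an unadjusted p under 0.05 and 1 called in DESeq2. The median was 0.28, with 18 of 22 above 0. Mmp14, a membrane-bound protease, was at 487, 807 and 398 CPM in SRF-RELA and 348, 348 and 277 CPM in SRF (adjusted p 0.153). Adamts2, which trims procollagens, was at 39.5, 119 and 43.3 CPM against 10.5, 16.3 and 24.3 CPM (adjusted p 0.148). The groups did not overlap for either gene.

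Outside the lists, called genes with large rises included enzymes and secreted proteins that act at the cell surface. Sulf2, an extracellular sulfatase that edits heparan sulfate, was at 10.2, 96.5 and 35.3 CPM in SRF-RELA and 1.73, 15.9 and 8.80 CPM in SRF (log2 fold change 2.40, SE 0.27, adjusted p 0.00755). Its levels varied widely between replicates, so the groups overlapped, yet the differences within pairs were close to each other at 2.50, 2.60 and 1.99 on the log2 scale. Chrdl1, a secreted antagonist of bone morphogenetic proteins, was at 0.147, 0.548 and 16.97 CPM against 0.0454, 0.0457 and 1.79 CPM (log2 fold change 3.10, SE 0.44). Sfrp1, a secreted antagonist of Wnt ligands, was at 0.294, 3.65 and 9.37 CPM against 0.0909, 1.37 and 0.959 CPM (log2 fold change 2.26, SE 0.39). Both secreted antagonists were highest in replicate 3 of SRF-RELA, unlike most called genes. Gcnt1, an enzyme that branches O-linked glycans, was at 0.441, 2.28 and 3.45 CPM against 0.0454, 0.183 and 0.349 CPM, with no overlap (log2 fold change 3.45, SE 0.57). Their adjusted p-values were 0.0160 for Chrdl1, 0.0376 for Sfrp1 and 0.0359 for Gcnt1.

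Several Wnt receptors and matrix-modifying genes were also called, and these were chosen after their values were seen. The Wnt receptor Fzd1 was at 50.8, 82.9 and 72.2 CPM against 36.3, 60.1 and 46.4 CPM (log2 fold change 0.54, SE 0.09). The co-receptor Lrp5 was at 71.3, 126 and 98.2 CPM against 47.0, 72.8 and 73.0 CPM (0.62, SE 0.11). Ptk7, a receptor-like protein of planar cell polarity, was at 44.3, 67.8 and 43.4 CPM against 28.4, 34.7 and 18.1 CPM, with no overlap (0.95, SE 0.14). Pygo1, a nuclear cofactor of beta-catenin, was at 7.98, 15.9 and 4.62 CPM against 1.54, 5.58 and 0.828 CPM (2.06, SE 0.29). P4ha3, a subunit of the enzyme that hydroxylates collagen prolines, was at 41.2, 110 and 53.9 CPM against 16.6, 31.9 and 13.3 CPM, with no overlap (1.70, SE 0.22). Ltbp2, a microfibril protein, was at 138, 313 and 308 CPM against 77.0, 143 and 146 CPM (1.03, SE 0.16). The coagulation genes F3, tissue factor, and F5, factor V, rose by 1.51 (SE 0.27) and 2.16 (SE 0.37).

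**Figure D2:**
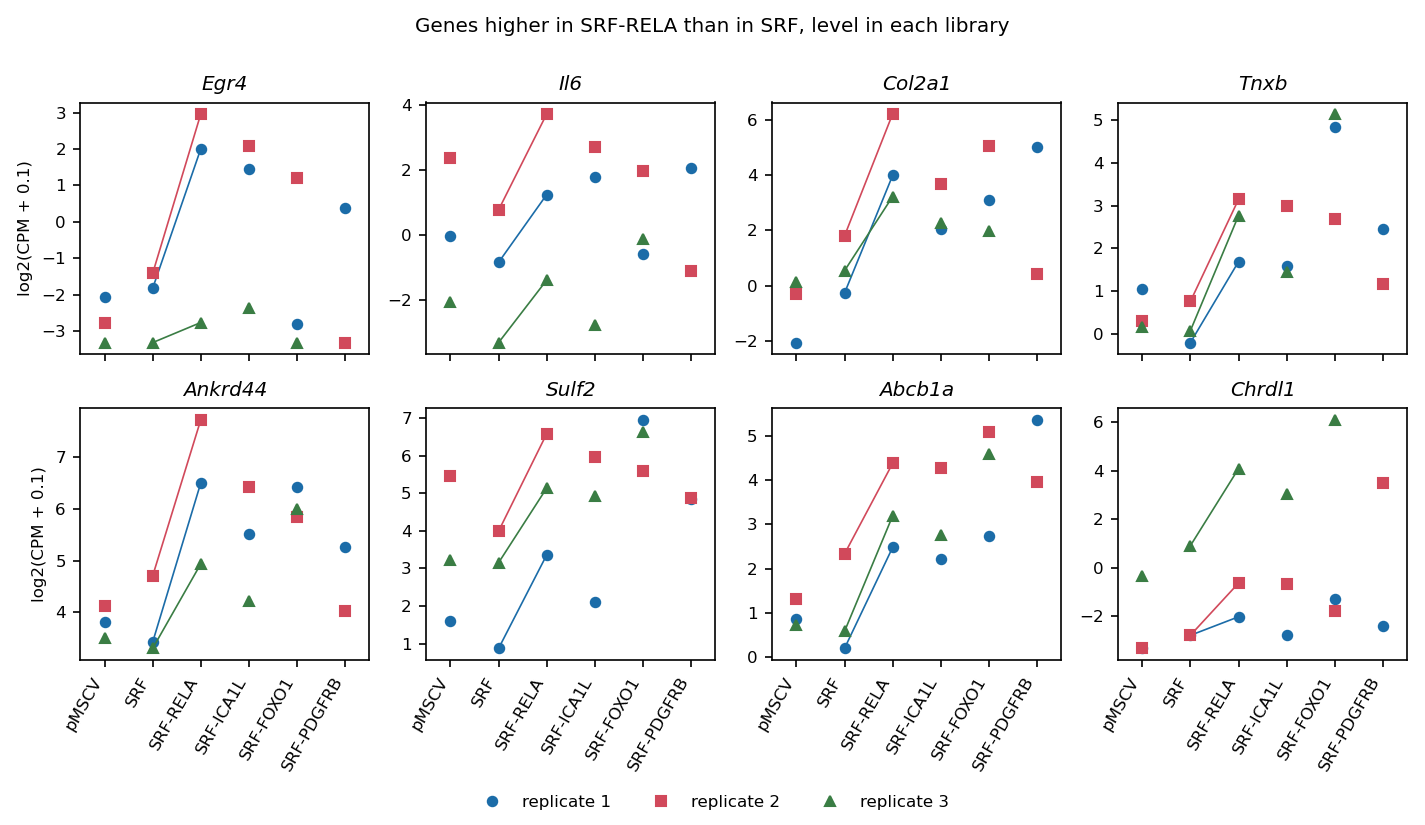
Level of 8 called higher genes in each of the 17 libraries, as log2(CPM + 0.1), with 1 point per library and lines joining the same-numbered SRF and SRF-RELA libraries. Every line slopes upward, from 10.7, 26.0 and 9.81 CPM to 90.1, 209 and 30.5 CPM for Ankrd44.

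The remaining genes with the largest rises were of varied roles. Ankrd44, a regulatory subunit of protein phosphatase 6, was at 90.1, 209 and 30.5 CPM in SRF-RELA and at 10.7, 26.0 and 9.81 CPM in SRF, with no overlap (log2 fold change 2.63, SE 0.35, adjusted p 0.0137). Abcb1a, the drug efflux pump P-glycoprotein, was at 5.48, 20.8 and 9.05 CPM against 1.05, 4.94 and 1.39 CPM, again with no overlap (2.35, SE 0.30, adjusted p 0.0107). Lmo1, a LIM-only transcription cofactor, was at 2.64, 2.74 and 1.59 CPM against 0.636, 0.457 and 0.131 CPM (2.55, SE 0.43). The groups were apart for Lmo1 too, so these 3 genes were above SRF in every library. Nxph3, a secreted neurexin ligand, was at 1.86, 2.74 and 0.746 CPM against 0.318, 0.366 and 0.131 CPM (2.69, SE 0.48). Prkd1, a serine/threonine kinase, was at 3.28, 10.2 and 0.233 CPM against 1.05, 1.37 and 0.0436 CPM (2.23, SE 0.40). The groups overlapped for Prkd1 and not for Nxph3. Atp2b3, a plasma membrane calcium pump, had 3 or fewer counts in each SRF library and was at 1.22, 8.81 and 0.0466 CPM in SRF-RELA, at least 24.9-fold higher against a floor of 3 counts per library (adjusted p 0.0469). Replicate 3 of SRF-RELA was itself under that floor, so the rise of Atp2b3 is that of replicates 1 and 2.

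Lyz2, the lysozyme of myeloid cells, was the called member of the macrophage markers. It was at 3.13, 7.89 and 0.933 CPM in SRF-RELA and 0.318, 2.15 and 0.0872 CPM in SRF (log2 fold change 2.59, SE 0.41, adjusted p 0.0311). Of the 6 macrophage markers, 3 were in the table, with summed levels of 3.22 to 10.7 CPM in SRF-RELA and 4.10 to 6.81 CPM in SRF. Cd68 was at 4.80, 2.14 and 1.91 CPM against 4.27, 4.30 and 3.66 CPM, and Csf1r was below 1 CPM in all 6 libraries. The fibroblast markers had a median of 0.89, with 5 of 5 above 0 and 0 called in edgeR (1 at an unadjusted p under 0.05, and 1 called in DESeq2). Their summed levels were 23.2, 91.6 and 39.0 CPM in SRF-RELA and 23.5, 32.8 and 14.99 CPM in SRF, and their median was -0.07 without SRF replicate 2. Whether such cells had a part in the matrix gene differences was not tested.

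Among the SRF cytoskeletal targets, Tpm2 was called and the others lay on both sides of 0. Tpm2 (chr4:43514711-43523765, minus strand), which encodes beta-tropomyosin, was at 423, 536 and 354 CPM in SRF-RELA and 247, 295 and 281 CPM in SRF, with no overlap. Its log2 fold change was 0.67 (SE 0.12, adjusted p 0.0430). Of 24 such genes, 14 had a log2 fold change above 0 and the median was 0.05. Their summed level was 19849 to 20069 CPM in SRF-RELA and 16181 to 23686 CPM in SRF, so the range of SRF enclosed that of SRF-RELA. Fhl2, a LIM-domain cofactor, was at 67.0, 106 and 81.7 CPM against 45.6, 56.4 and 76.9 CPM (adjusted p 0.179).

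The smooth muscle contractile genes had the highest median of the lists of SRF targets and muscle genes, 0.89, with 13 of 14 above 0, yet 0 were called in edgeR, 2 were called in DESeq2 and 6 reached an unadjusted p under 0.05. The pairs went different ways for every tested member but Ldb3 and Aoc3. Cnn1, calponin, was at 81.8, 125 and 10.4 CPM in SRF-RELA and 1.54, 9.97 and 18.6 CPM in SRF (log2 fold change 3.02, SE 1.31, adjusted p 0.287). Actg2, the gamma smooth muscle actin, was at 206, 362 and 96.0 CPM against 32.3, 78.0 and 223 CPM (1.40, SE 0.93). For both genes SRF-RELA was above SRF in replicates 1 and 2 and below it in replicate 3. The summed level was 2684, 4274 and 2184 CPM in SRF-RELA and 1118, 2450 and 4362 CPM in SRF. Ldb3, a Z-disc protein gene, came nearest to the threshold, at 15.5, 62.8 and 21.8 CPM against 5.23, 24.001 and 21.3 CPM (adjusted p 0.0963). Aoc3 was at 11.7, 91.9 and 17.8 CPM against 3.32, 4.80 and 5.40 CPM, with no overlap (log2 fold change 2.42, SE 0.87, adjusted p 0.212).

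**Figure D3:**
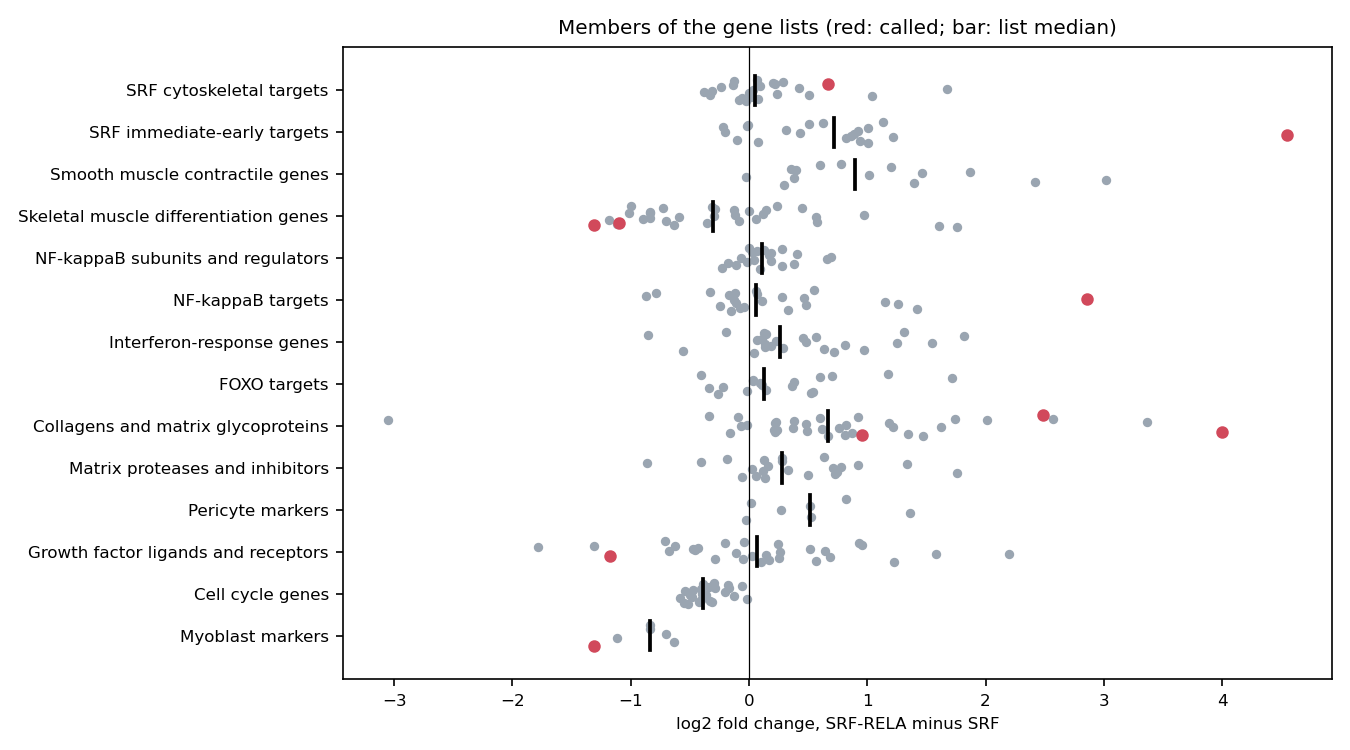
Log2 fold change of SRF-RELA over SRF (horizontal axis) for each tested member of 14 gene lists (rows), with called members in red and the list median as a black bar. The medians run from -0.84 for the myoblast markers to 0.89 for the smooth muscle genes.

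Genes of skeletal muscle were among those called lower. Cdh15, which encodes M-cadherin, the adhesion molecule of myoblasts, was at 55.2, 64.7 and 125 CPM in SRF-RELA, 173, 149 and 276 CPM in SRF, and 347, 206 and 392 CPM in pMSCV. The SRF-RELA libraries lay below all SRF libraries (log2 fold change -1.31, SE 0.21, adjusted p 0.0327). Chrnd, the delta subunit of the muscle acetylcholine receptor, was at 19.4, 10.6 and 8.16 CPM against 34.4, 26.0 and 19.1 CPM (-1.10, SE 0.19, adjusted p 0.0360). Its groups overlapped by SRF-RELA replicate 1 and SRF replicate 3, and pMSCV was above both at 148, 74.1 and 60.9 CPM. Of 32 skeletal muscle genes, these 2 were called lower (8 in DESeq2), 0 were called higher, 10 had a log2 fold change above 0 and the median was -0.30. The median moved to -1.13 without SRF-RELA replicate 2 and to -0.03 without every replicate 3 library of the 12.

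The muscle lineage factors themselves missed the threshold. Myod1 was at 13.2, 14.3 and 46.6 CPM in SRF-RELA and 28.3, 25.1 and 73.0 CPM in SRF (log2 fold change -0.83, SE 0.20, adjusted p 0.0870). Myf5 was at 8.57, 10.5 and 15.3 CPM against 14.2, 19.5 and 29.3 CPM (-0.84, SE 0.21, adjusted p 0.0957). Mef2c, which acts with them, was at 3.23, 4.06 and 6.53 CPM against 12.04, 9.51 and 9.63 CPM, with no overlap (adjusted p 0.0995). Chrnb1, the beta receptor subunit, was at 25.3, 14.9 and 44.9 CPM against 61.3, 41.4 and 67.2 CPM (adjusted p 0.0524). Each of these 4 genes was lower in SRF-RELA in 3 of 3 pairs. All 6 myoblast markers had a log2 fold change below 0, with a median of -0.84 that stayed between -0.96 and -0.81 over 22 other settings. Acta1, the skeletal actin, lay on the other side, at 47.8, 160 and 24.9 CPM against 10.8, 14.9 and 51.9 CPM (log2 fold change 1.76, SE 0.78, adjusted p 0.297).

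Muscle genes outside the lists were among the largest falls. Xirp1, an actin-binding protein of striated muscle, was at 4.31, 3.51 and 5.78 CPM in SRF-RELA, 24.1, 16.4 and 11.8 CPM in SRF, and 38.7, 14.6 and 32.6 CPM in pMSCV. There was no overlap between SRF-RELA and SRF (log2 fold change -1.95, SE 0.33, adjusted p 0.0360). Synpo2l, a Z-disc protein, was at 9.84, 6.43 and 3.45 CPM against 27.4, 15.2 and 14.6 CPM, also with no overlap (-1.53, SE 0.28, adjusted p 0.0438). Lbx1, a homeobox factor of migrating muscle precursors, was at 2.45, 0.958 and 0.233 CPM against 8.91, 3.15 and 0.654 CPM (-1.71, SE 0.23, adjusted p 0.0133). Lbx1 differed more widely between replicates than between lines, but its falls within pairs were of like size, -1.82, -1.63 and -1.20 on the log2 scale.

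**Figure D4:**
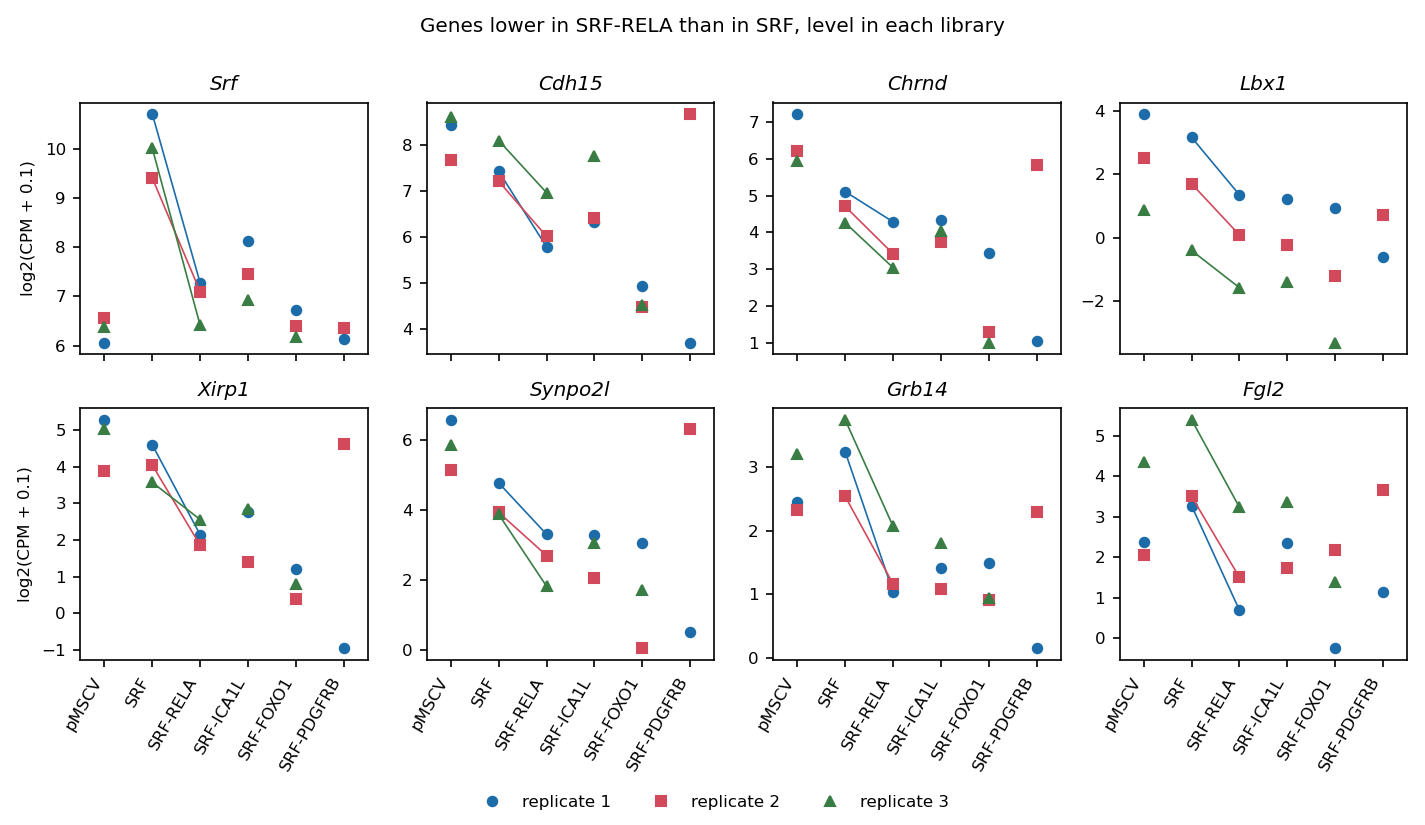
Level of 8 called lower genes in each of the 17 libraries, as log2(CPM + 0.1), with 1 point per library and lines joining the same-numbered SRF and SRF-RELA libraries. Every line slopes downward, and the SRF line stands apart from the other 5 for Srf at 678 to 1673 CPM.

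The other named falls were not muscle genes. Glrp1 (chr1:88499871-88510066, minus strand) was at 7.69, 1.28 and 1.91 CPM in SRF-RELA and 27.8, 7.04 and 6.14 CPM in SRF (log2 fold change -1.98, SE 0.20, adjusted p 0.00625). Grb14, an adapter that restrains insulin receptor signalling, was at 1.96, 2.14 and 4.10 CPM against 9.36, 5.71 and 13.3 CPM (-1.77, SE 0.20, adjusted p 0.00755). Aim2, a sensor of cytosolic DNA, was at 6.81, 2.87 and 3.03 CPM against 20.5, 10.6 and 10.0 CPM (-1.73, SE 0.20, adjusted p 0.00755). Grb14 and Aim2 had no overlap between the lines, and Glrp1 overlapped by SRF-RELA replicate 1. Fgl2, a fibrinogen-like protein, was at 1.52, 2.74 and 9.33 CPM against 9.59, 11.2 and 42.1 CPM, with no overlap (-2.22, SE 0.28). Dcaf8l was at 17.04, 6.53 and 4.24 CPM against 48.4, 21.3 and 14.0 CPM (-1.64, SE 0.22). Gdf15, a secreted member of the transforming growth factor beta family, was the called member of 30 growth factor genes, at 26.1, 25.3 and 16.6 CPM against 55.1, 76.1 and 31.1 CPM (-1.17, SE 0.17). Gdf15 had no overlap, and its list had a median of 0.06 with 16 of 30 above 0.

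Among other called falls, chosen after their values were seen, Alox5, the lipoxygenase that starts leukotriene synthesis, was at 36.5, 28.5 and 76.9 CPM in SRF-RELA, 116, 72.4 and 151 CPM in SRF and 189, 86.8 and 258 CPM in pMSCV (log2 fold change -1.32, SE 0.17). Itgb6, an integrin subunit with a CArG box in its window, was at 1.13, 1.19 and 1.73 CPM against 3.14, 2.61 and 4.14 CPM, with no overlap (-1.27, SE 0.22). Rorb, a nuclear receptor, was at 11.0, 9.95 and 16.5 CPM against 24.2, 26.8 and 29.7 CPM, again with no overlap (-1.13, SE 0.20).

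The cell cycle, interferon, FOXO and pericyte lists gave 0 called genes in edgeR, and DESeq2 called 0, 1, 1 and 2 of their members. All 25 cell cycle genes had a log2 fold change below 0, with a median of -0.39 and 4 at an unadjusted p under 0.05. Their summed level was 5880, 3069 and 6817 CPM in SRF-RELA and 5756, 5807 and 6747 CPM in SRF. Replicate 2 of SRF-RELA was thus low against SRF replicate 2, while the other pairs were level. Replicate 2 was also the lowest library of pMSCV, at 5254, 2286 and 6702 CPM, and of SRF-ICA1L, at 5370, 3909 and 6410 CPM. SRF replicate 2 did not share this low level. Without every replicate 2 library of the 12 the median was -0.01. Interferon-response genes were above 0 in 21 of 24, with a median of 0.26 and 5 at an unadjusted p under 0.05. Their summed level was 481, 578 and 399 CPM in SRF-RELA and 475, 439 and 409 CPM in SRF, so replicates 1 and 3 were about level. FOXO targets were above 0 in 13 of 18 (median 0.13, 8 at an unadjusted p under 0.05). Their sums were 1076, 1593 and 1019 CPM against 1148, 1259 and 1058 CPM, higher in SRF-RELA in replicate 2 only. Pericyte markers were above 0 in 6 of 7 (median 0.51, 3 at an unadjusted p under 0.05). Pdgfrb, a pericyte marker, was at 349, 412 and 298 CPM in SRF-RELA and 259, 245 and 121 CPM in SRF, with no overlap (adjusted p 0.159).

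Replicate 2 of SRF-RELA was the highest of its group for 61 of the 73 called higher genes, replicate 1 for 4 and replicate 3 for 8. Cell cycle genes were low in that library and in replicate 2 of pMSCV and SRF-ICA1L, but not in SRF replicate 2. The called lower genes had no such pattern, with the lowest library being replicate 1 for 6, replicate 2 for 10 and replicate 3 for 7. Whether the state of the cells in replicate 2 of either line had a part in the rises was not tested. Without SRF-RELA replicate 2, 11 genes were called higher and 12 lower. For the 96 called genes, the line held 63.1% of the variance of the median gene and replicate number 31.9%, a balance that the calls themselves favour.

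**Figure D5:**
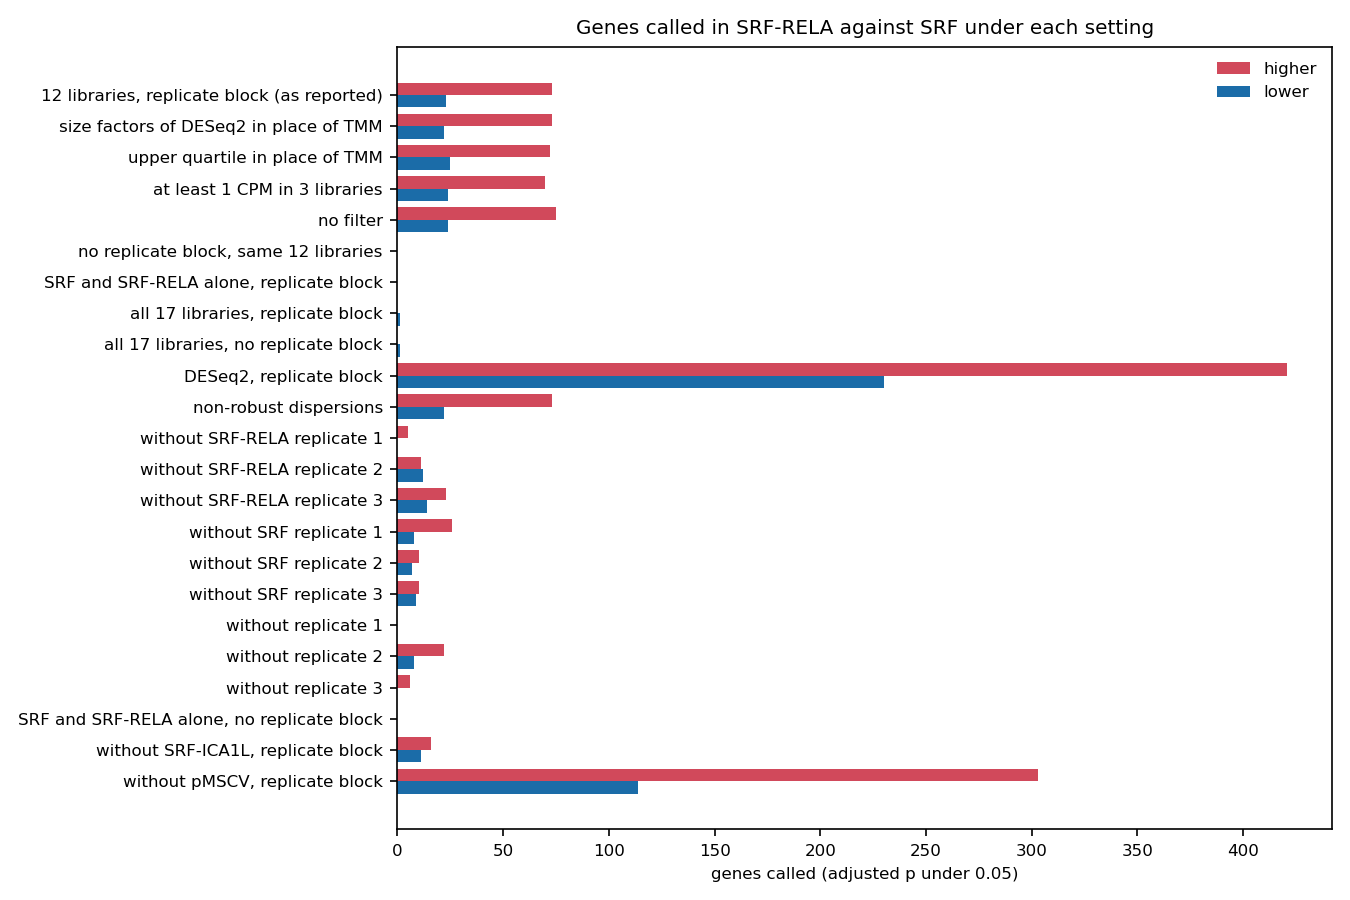
Number of genes called at an adjusted p under 0.05 (horizontal axis) in SRF-RELA against SRF for the reported fit and 22 other settings (rows), red for higher and blue for lower. The counts run from 0 to 421 higher and 230 lower in DESeq2. Both are 0 for the 12 libraries without the block, the pair of lines alone, and the fit without replicate number 1.

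SRF-ICA1L is the other fusion line in the fit, and SRF-RELA was tested against it directly. The number of genes called between the 2 fusion lines was 0 in edgeR (0%) and 0 in DESeq2. In edgeR 266 genes, or 1.82%, had an unadjusted p under 0.05. A p that misses the threshold does not show equal levels. Of the called genes, 24 of the 73 higher and 5 of the 23 lower had an unadjusted p under 0.05 between the fusion lines. These genes were chosen on the same SRF-RELA libraries, so a share above 1.82% can follow from that choice alone. No difference between the fusion lines is read from it. Col2a1 was at 4.04, 12.8 and 4.72 CPM in SRF-ICA1L, and SRF-RELA was higher by 1.96 on the log2 scale with an adjusted p of 0.9998. Ankrd44 was at 45.6, 84.8 and 18.5 CPM in SRF-ICA1L, and SRF-RELA was higher by 1.05 with an adjusted p of 0.9998. Both genes were higher in SRF-RELA in each pair.

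Values for 6 other named genes, chosen after they were seen, follow. Egr4 was at 2.65, 4.11 and 0.0916 CPM in SRF-ICA1L, with the same low replicate 3. Il6 was at 3.32, 6.43 and 0.0458 CPM there, and Abcb1a at 4.57, 19.2 and 6.64 CPM. Glrp1 was at 6.89, 1.03 and 1.92 CPM, Grb14 at 2.55, 2.01 and 3.39 CPM and Xirp1 at 6.74, 2.54 and 7.05 CPM. For these 6 genes the log2 difference between SRF-RELA and SRF-ICA1L lay between -0.18 and 0.65. Against SRF, SRF-ICA1L called 14 genes (0.0956%). The 2 comparisons share the SRF libraries, so their calls were not compared. Side by side, the log2 fold changes over SRF were 4.55 in SRF-RELA and 3.90 in SRF-ICA1L for Egr4, -1.98 and -2.12 for Glrp1, and 0.95 and 0.83 for Col12a1.

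The empty-vector line places these differences. SRF over pMSCV called 2 genes (0.0137%) and SRF-RELA over pMSCV called 949 (6.48%), and both share libraries with the comparison of SRF-RELA and SRF. For Ankrd44 the log2 fold change over pMSCV was 2.60 in SRF-RELA and -0.03 in SRF, and for Abcb1a 2.46 and 0.11. For Chrnd it was -2.86 in SRF-RELA and -1.76 in SRF, and for Synpo2l -3.21 and -1.68. In those muscle genes SRF stood between pMSCV and SRF-RELA. For Fgl2, SRF was above pMSCV (1.14) and SRF-RELA below it (-1.09). The median of the skeletal muscle genes over pMSCV was -1.68 in SRF-RELA and -1.37 in SRF, and that of the matrix genes was 0.61 and -0.17.

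Counting error was not estimated apart from the other spread, and some called genes rest on few counts. In SRF replicates 1 to 3, Chrdl1 had 1, 1 and 41 counts and Gcnt1 had 1, 4 and 8. Among the 96 called genes, 2 averaged under 1 CPM in the higher group and 3 (Atp2b3, Ppp1r3c and Tll1) had 3 or fewer counts in every SRF library. In the annotation of the build, 95 of the 96 are protein coding and 34 overlap a gene on the other strand. These shares were not counted over all genes tested, so they are not read as particular to the called genes. Sulf2 is one of the 34 (chr2:166073089-166155663, minus strand, with Ncoa3 on the plus strand). Whether counting used the strand is not given in the sources used here. Xlr3c, a called gene with near-identical copies (log2 fold change 2.20, SE 0.21), is uncertain for that reason.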

How the data were processed

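RNA was extracted with on-column DNase treatment from 17 C2C12 libraries, 12 of which entered the fit: pMSCV, SRF, SRF-ICA1L and SRF-RELA, 3 each. Per the labels' protocols, a stranded mRNA kit and an Illumina NovaSeq instrument were used. The submitters' processing notes name FastQC 0.11.8, Trimmomatic 0.39, HISAT2, featureCounts of Subread 2.0.0 and the build GRCm38. The annotation and the strand setting are not given in the sources used here. The authors deposited raw counts per gene for 15062 genes, each with at least 10 counts in 3 libraries, and 1519 of 1531 genes without a symbol were named from a reference table by identifier.

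Low counts were filtered with edgeR's filterByExpr, which left 14639 genes. TMM scaling (trimmed mean of M values) was applied, and the fit used robust quasi-likelihood dispersions in edgeR 4.0.16 under R 4.3.3, which loads limma 3.58.1, and terms for group and replicate number. This left 6 residual degrees of freedom, and the biological coefficient of variation was 18.5%. Adjustment over all genes tested was by Benjamini-Hochberg, and called genes are those with an adjusted p under 0.05. The main alternative tool was DESeq2 1.42.0. CPM are counts per library scaled to a common size with TMM factors over 17 libraries. The fit was tested on simulated data with known changes.

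Replicate numbers come from the titles, which do not say what a number marks. The deviations of same-numbered SRF and SRF-RELA libraries from their group means correlated at 0.492 to 0.623 across genes and those of different numbers at -0.439 to -0.0925. Deviations cancel within a group, so the lower range follows in part from the higher one and is no separate evidence. The block was part of how the comparison was defined, and the titles do not state the pairing. No library was taken as a duplicate, since pairs within SRF or SRF-RELA had chi-square values of 29.8 to 137 for each degree of freedom.

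The comparison and the gene lists, written from general knowledge, were chosen with earlier results of these data known, and the lists support no direction by themselves. The text names Srf, Rela, the called members of the lists, and the 15 largest rises and 10 largest falls among called genes that have a symbol, are not predicted genes, moved 1 way in 3 of 3 pairs and averaged at least 1 CPM in the higher group. Of these, 1 gene is not reported here. List members that were not called, and genes said to be so, were chosen after their values were seen. Gene positions are from GENCODE vM21 and promoter windows from RefSeq, both on GRCm38.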

Additional observations from a re-analysis of the deposited data

How the results depend on the processing

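The number of called genes, 96 (73 higher, 23 lower), depended on the fit. Without the replicate block the same 12 libraries gave 0 (0 and 0), and SRF with SRF-RELA alone gave 0 (0 and 0) with the block and 0 (0 and 0) without it, the latter added after the data had been seen. All 17 libraries gave 1 (0 higher, 1 lower) with the block and 1 (0 and 1) without it. DESeq2 with the block gave 651 (421 and 230). Fits added after the data had been seen gave 27 (16 and 11) without SRF-ICA1L and 417 (303 and 114) without pMSCV. Other scalings, filters and non-robust dispersions gave 94 to 99. Leaving out 1 SRF or SRF-RELA library, or every library of 1 number, gave 0 to 37 called, 0 to 26 higher and 0 to 14 lower. The count was 0 without replicate number 1 and 6 without number 3. SRF-RELA against SRF-ICA1L stayed at 0 except for 1 gene without SRF-RELA replicate 3 or without number 3, a range of 0 to 1. Apart from the sizes of the fits, which set the degrees of freedom, the cause was not tested. Of the named genes, 0 of 650 combinations with a setting reversed, but these genes had been chosen as called and had moved 1 way in 3 of 3 pairs. Depth limits the genes under 1 CPM.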
